A study of Helix lucorum with 35 samples.

Results

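The 188 contigs described here were assembled transcript fragments of the terrestrial snail Helix lucorum that were on average already expressed in control parietal ganglia (PaG) and were higher in the activated than in the control library of every snail with both libraries, in both experiments of the study. They were chosen by their measured values. Levels are in CPM, the expected count of a contig divided by the total of its library and multiplied by 1000000. The difference d of a snail is the log2 ratio of activated to control CPM, with 0.5 CPM added to both, so that a d of 1 is a 2-fold difference. A contig was taken when d was above 0 in all 11 snails with both libraries, the mean d was at least 1 in the 6 snails of the first experiment (E1) and at least 1 in the 5 such snails of the second experiment (E2), and the mean of the 11 paired controls was at least 2 CPM. The contig assigned to c-fos/fosl2 was left out of the set and served for comparison. Of the 693041 contigs of the assembly, 188 met the rule (0.0271%). Of the 41786 contigs with at least 2 CPM in the paired controls, they were 0.450%.

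RNA-Seq was done on 24 libraries from 13 adult snails. In E1, the PaG of snails 1 to 6 gave 6 control and 6 activated libraries, 1 of each from every snail, with the left side activated in snails 1 to 3 and the right side in snails 4 to 6. In E2, only a medial fragment of the PaG with, for the most part, the somata of the giant premotor interneurons Pa2 and Pa3 gave 6 control and 6 activated libraries from snails 7 to 13. Snail 7 gave only an activated library (right side) and snail 12 only a control library (left side), and of the other 5 snails, snail 9 was activated on the right and the rest on the left. All parts came from isolated nervous systems that had been kept cold in saline rich in calcium and magnesium, which suppresses electrical activity. Both sides were brought to room temperature before the control side was removed and frozen. The activated side was held in normal saline with 20 µM anisomycin for 10 min, and after that, with anisomycin still present, received serotonin (5-HT) at 5 µM together with caffeine at 100 µM for 20 to 25 min. No library had the saline or anisomycin without 5-HT and caffeine, so the effects of stimulation, anisomycin, the change of saline and time cannot be told apart. By the methods, the left parts in E1 carried the adhered visceral ganglion, although another description of the design says that this ganglion was not used.

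Immediate early genes (IEGs) are genes whose transcription rises soon after a cell is stimulated, by means of proteins that are already present, so that the response does not need new protein synthesis. Many of them encode transcription factors, and c-fos, part of the AP-1 factor, is the one most used as a mark of neuronal activity. In gastropods, 5-HT is a modulatory transmitter that strengthens defensive reflexes, and the giant parietal interneurons drive withdrawal. Anisomycin inhibits protein synthesis at the ribosome, and caffeine releases calcium from intracellular stores and inhibits phosphodiesterases. A gene can respond in this way from near silence or from a level that is already above zero.

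The count tables name contigs by number and pair no gene name with any of the 188, so no sequence or function is given for them, and the labelled tissue could not be checked against cell type markers. Several contigs may come from 1 transcript. The libraries were made from pieces of tissue, so a lower level may mean fewer cells of a type or less RNA per cell.

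In the control libraries, most of the 188 contigs were expressed at low to moderate levels. Their mean over the 11 paired controls ran from 2.01 to 369 CPM with a median of 6.03, against a median of 4.37 CPM for all 41786 contigs above the same minimum. In detail, 84 contigs lay between 2 and 5 CPM, 43 between 5 and 10, 52 between 10 and 50, and 9 at 50 CPM or more. The minimum of 2 CPM applied to the mean of both experiments, and 44 of the 188 were below it in the E1 controls and 1 in the paired E2 controls. Some were at 0 in single controls. Another 203 contigs had the same rises but a lower control level and were not taken. When the rule was mirrored, so that all 11 differences had to be below 0 and both means at most -1, 1 contig passed at any control level and 0 passed at the control level of the set.

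The contigs near the edge of each threshold show how finely the rule divided them. Contig 688483, with a mean d of 1.003 in E1, was inside, and contig 2030095, with 0.997, was outside. For the mean d in E2, contig 1571702 (1.001) was inside and contig 377058 (0.997) was outside. For the control level, contig 632263 (2.01 CPM) was inside and contig 908066 (1.998 CPM) was outside. Contig 1931446 had the smallest d that still counted as above 0, 0.0033 in snail 10, and contig 339013 missed the rule with a lowest d of 0. No more than a small step separated members from non-members in any of these measures.

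Summed over the 188 contigs, the level in the E1 controls of snails 1 to 6 was 1060, 3382, 1050, 1939, 1757 and 1434 CPM. In the activated libraries of the same snails it was 9905, 7851, 4980, 3607, 7731 and 6235 CPM, so every activated E1 library stood above every control. Snail 1 had a 9.34-fold higher sum on the activated side, whereas snail 4 had a 1.86-fold and snail 2 a 2.32-fold higher sum. In E2 the paired controls of snails 8, 9, 10, 11 and 13 summed to 4851, 3794, 7855, 2508 and 3017 CPM and the activated libraries of these snails to 10207, 11455, 14848, 10379 and 9231 CPM. The 188 contigs together thus made up between 0.105% and 0.338% of the counts of an E1 control library and up to 1.48% of an activated E2 library. The control library of snail 12 stood apart with 9736 CPM, more than the activated library of snail 13, so the E2 groups overlapped by this 1 library.

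**Figure D1:**
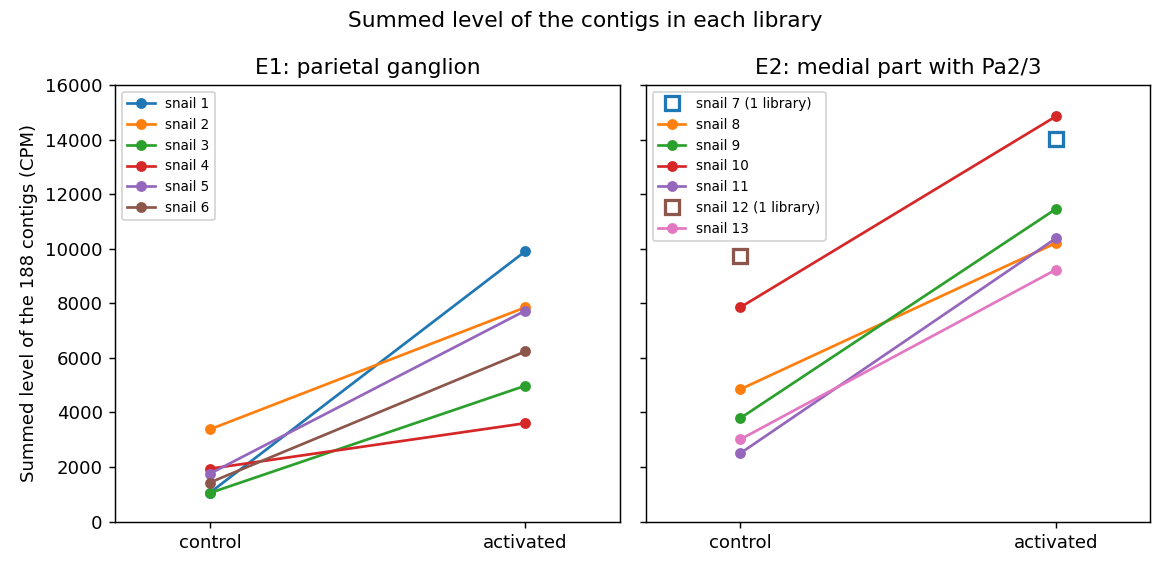
Summed level of the 188 contigs in each library (CPM, linear axis from 0) for E1 on the left and E2 on the right, with a line joining the control and activated library of 1 snail and open squares for snails 7 and 12, which gave 1 library each. All lines climb, the E1 groups do not overlap, and the control library of snail 12 (9736 CPM) lies above the activated library of snail 13 (9231 CPM).

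The size of the difference varied from snail to snail more than the common direction shows. By the rule, d was above 0 for all 188 contigs in all 11 snails. In E1, the median d of the 188 was 2.99 in snail 1, 1.16 in snail 2, 2.06 in snail 3, 0.87 in snail 4, 2.13 in snail 5 and 1.96 in snail 6. In E2 it was 1.18 in snail 8, 1.65 in snail 9, 0.90 in snail 10, 2.10 in snail 11 and 1.57 in snail 13. Snail 1 thus had the strongest response, with the largest d of the 11 snails for 120 of the contigs, and snails 4 and 10 the weakest, with the smallest d for 70 and 50 contigs. A d of at least 1 was reached by 186 contigs in snail 1 but by 62 in snail 4 and 74 in snail 10. Among all contigs above 2 CPM in the paired controls, the median d was close to 0 in each E1 snail and between -0.34 (snail 13) and 0.01 (snail 11) in E2.

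The c-fos/fosl2 contig, which had no part in the choice, gave a d of 6.05, 2.35, 3.74, 1.51, 3.22 and 3.78 in snails 1 to 6 and of 2.04, 2.62, 1.72, 4.30 and 2.76 in snails 8, 9, 10, 11 and 13. Its largest d in E1 was in snail 1 and its smallest in snail 4, and its largest and smallest in E2 were in snails 11 and 10, as for the medians of the 188 contigs.

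**Figure D2:**
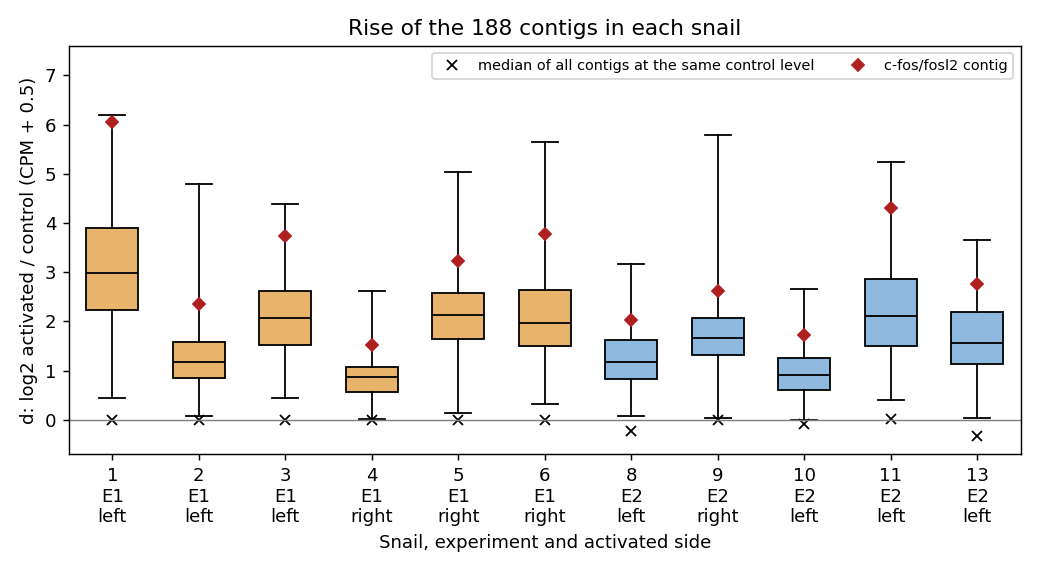
Distribution of d (log2 of activated over control CPM, 0.5 added) over the 188 contigs in each of the 11 snails with both libraries. Boxes span the quartiles with a line at the median, whiskers reach the lowest and highest value, E1 is orange and E2 blue, crosses mark the median of all contigs at the same control level and diamonds the c-fos/fosl2 contig. Medians run from 0.87 in snail 4 to 2.99 in snail 1, and the crosses stay near 0.

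Averaged within an experiment, d ran from 1.00 to 3.91 in E1 with a median of 1.86 (3.64-fold) and from 1.00 to 2.95 in E2 with a median of 1.40 (2.64-fold). Over all 11 snails the mean d was between 1.03 and 3.27 with a median of 1.66 (3.15-fold). The contigs at the same control level had a median mean d of -0.01 in E1 and -0.17 in E2. A mean d of at least 2 was reached by 73 contigs in E1 and 31 in E2, with 26 in both, and a mean d of at least 3 by 8 contigs in E1 and 0 in E2. The mean d was larger in E1 for 151 of the 188 contigs and larger in E2 for 37 (median of E1 minus E2 0.40). These values chose the contigs and are a description. The experiments used different snails, different dissections and separate libraries, which cannot be told apart.

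**Figure D3:**
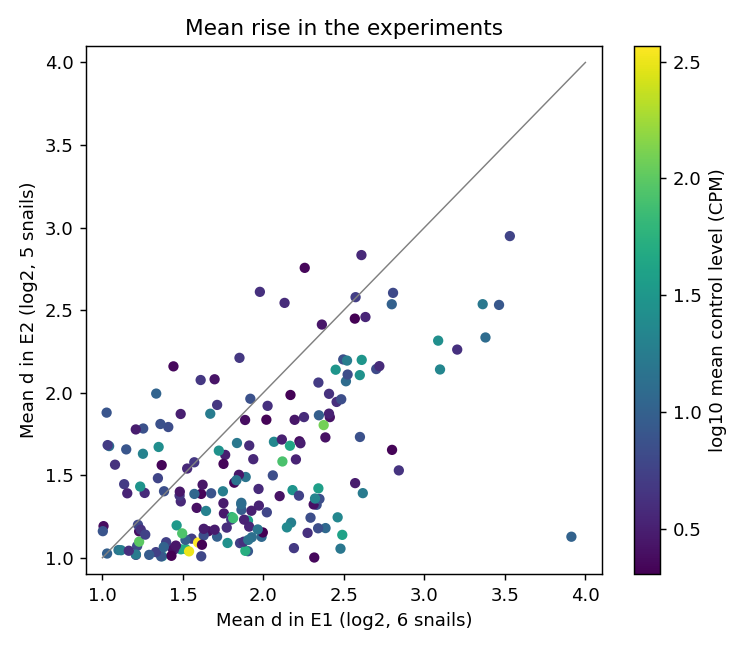
Mean d in E1 (6 snails, horizontal axis) against mean d in E2 (5 snails, vertical axis) for each of the 188 contigs, coloured by the log10 of the mean control level in CPM, with a line of equal values. Most points (151) lie below the line, and the point at the right edge is contig 575907 with 3.91 in E1 and 1.13 in E2.

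When the libraries were compared as groups, without regard to the snail, many of the contigs overlapped. All 6 activated libraries were above all 6 controls for 69 contigs in E1 (0.402% of the contigs at the same control level) and for 27 in E2 (0.124%). Over the 5 E2 snails with both libraries, the groups were apart for 64 contigs, but the share at the same control level was not determined. The counts of 27 and 64 cannot be compared directly. Fewer libraries are separated more easily, and the rule used the libraries of these 5 snails but not those of snails 12 and 7.

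The contigs with the highest control level changed by moderate factors. Contig 230266 had the highest, with 91.9 to 451 CPM in the E1 controls (median 151) and 388 to 672 (median 509) in the activated E1 libraries. In E2 its controls lay between 274 and 1356 CPM (median 682) and its activated libraries between 796 and 1678 (median 1089.6). The highest control and the lowest activated library overlapped in both experiments, and d was 1.59 ± 0.77 in E1 (mean ± SD, n = 6 snails) and 1.09 ± 0.48 in E2 (n = 5).

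Contig 1847519 had 114 to 398 CPM in the E1 controls (median 145) and 319 to 789.8 in the activated libraries (median 442). In E2 it had 304 to 999.6 CPM in the controls (median 451) and 547 to 1813 in the activated libraries (median 906), again with overlap. Its d was 1.54 ± 0.64 in E1 and 1.039 ± 0.23 in E2, and the latter was among the more even responses across snails.

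Contig 516121 was the third by control level and had the larger response of these. Its E1 controls ranged from 21.8 CPM in snail 1 to 124 in snail 2 (median 57.1) and its activated libraries from 204 to 394 (median 294), with no overlap. In E2 it had 85.2 to 462 CPM in the controls (median 159.8) and 409 to 849 in the activated libraries (median 532), where the controls of snails 10 and 12 reached above the lowest activated library. Its d was 2.37 ± 1.12 in E1 and 1.803 ± 0.74 in E2. The controls of snails 10 and 12, at 437 and 462 CPM, were above every activated E1 library.

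Contigs 1164924 and 1915914 followed, with a mean of 99.2 and 85.9 CPM in the paired controls. Contig 1164924 differed widely between snails, from 9.27 CPM in the control of snail 6 to 516 CPM in that of snail 10, and on the activated side from 15.2 to 968 CPM in the same snails. Its d was nevertheless even, at 1.23 ± 0.60 in E1 and 1.10 ± 0.40 in E2. Contig 1915914 had 15.9 to 95.3 CPM in the E1 controls (median 57.7) and 108 to 265 in the activated libraries (median 125), without overlap, and d was 1.496 ± 0.74 in E1 and 1.15 ± 0.40 in E2.

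The largest mean d over the 11 snails belonged to contig 668246, at 3.27. It had 0.857 to 10.3 CPM in the E1 controls (median 2.65) and 9.73 to 79.6 in the activated libraries (median 45.6), and the only overlap was between the control of snail 2 and the activated library of snail 4. In E2 the controls lay between 1.64 and 16.0 CPM (median 9.73) and the activated libraries between 21.6 and 96.4 (median 75.04), with no overlap, snails 7 and 12 included. Its d was 3.53 ± 1.59 in E1 and 2.95 ± 0.63 in E2, the largest E2 mean of the 188.

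Contig 350004 had no overlap in either experiment. Its E1 controls were between 1.85 and 12.1 CPM (median 6.15) and its activated libraries between 20.6 and 160.0 (median 63.4). In E2 it had 7.94 to 77.8 CPM in the controls (median 33.5) and 96.3 to 190.2 in the activated libraries (median 147). Its d was 3.36 ± 1.54 in E1 and 2.54 ± 1.00 in E2, with 6.10 in snail 1 and 1.48 in snail 10 as the extremes.

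Contig 399398 followed contig 350004 closely. It had 0.822 to 4.96 CPM in the E1 controls and 10.6 to 91.1 in the activated libraries, and 3.48 to 41.1 and 41.1 to 120.1 CPM in E2. The counts of contig 350004 were a median of 1.96 times those of contig 399398 over the 24 libraries, and within groups the pair had a correlation of 0.973. Whether the pair belongs to 1 transcript was not determined.

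Contigs 2029126 and 1596259 completed the 5 with the largest mean d, at 2.90 and 2.77. Contig 2029126 had only 0.0799 CPM in the control and 1.31 CPM in the activated library of snail 4, but 2.03 and 145 CPM in snail 1, and its mean d was 3.38 ± 1.48 in E1 and 2.33 ± 1.07 in E2. Contig 1596259 had 0.926 to 5.09 CPM in the E1 controls and 10.7 to 47.1 in the activated libraries, with no overlap. In E2 its control library of snail 12, at 35.2 CPM, stood far above the other controls (1.39 to 10.2 CPM) and above 4 of the 6 activated libraries.

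**Figure D4:**
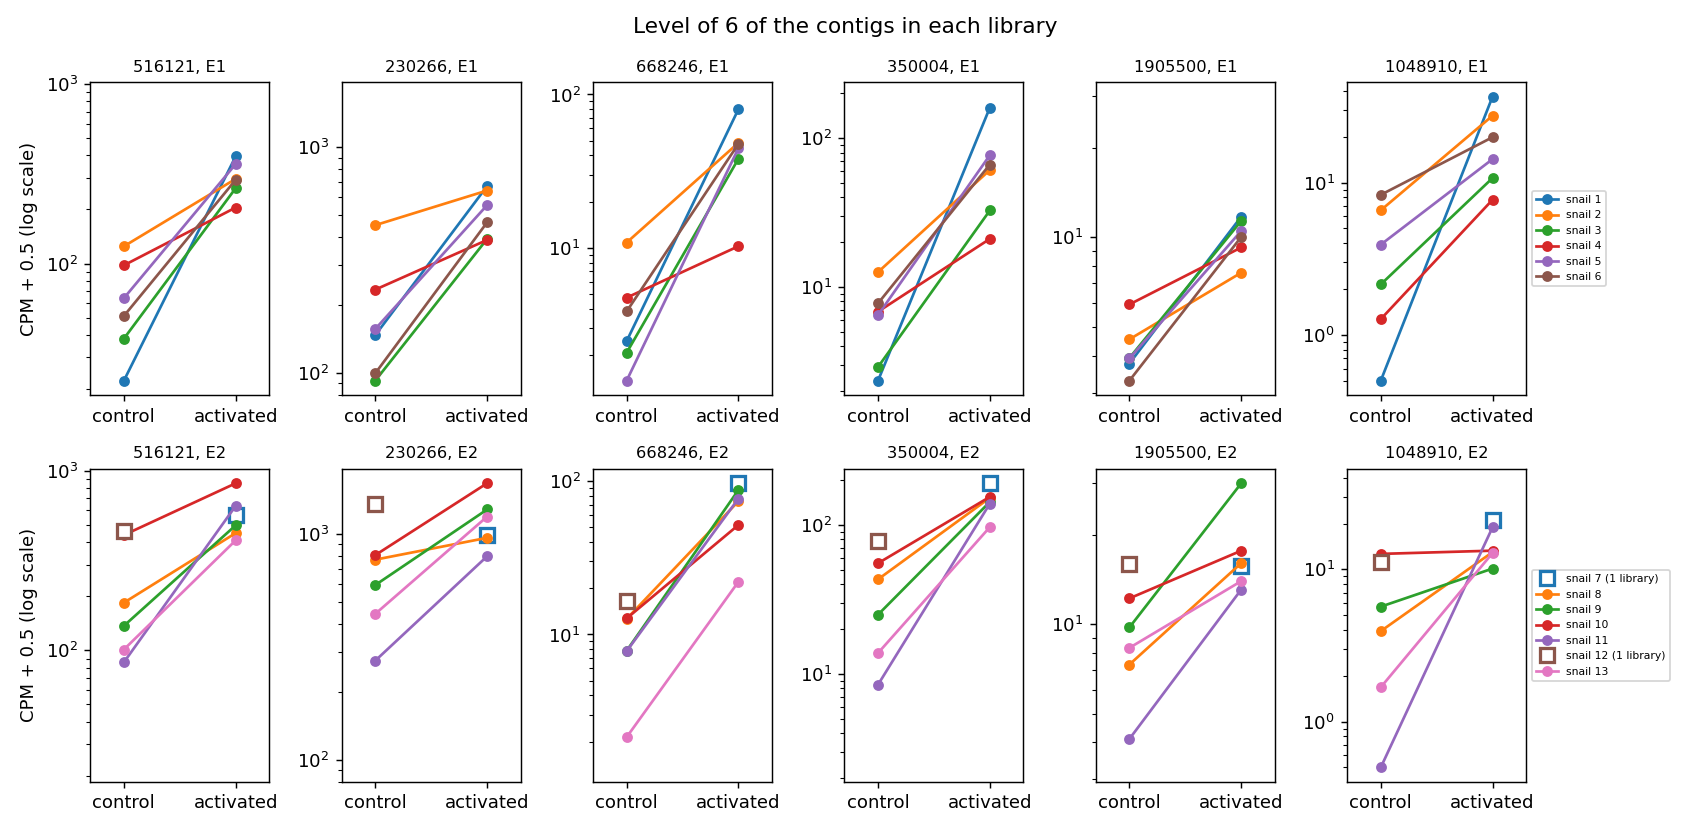
Level of 6 contigs in every library (CPM + 0.5, log axis), E1 above and E2 below, with a line joining the control and activated library of 1 snail and open squares for snails 7 and 12. Contigs 516121 and 230266 have high control levels, 668246 and 350004 large rises, 1905500 the most even and 1048910 the most uneven rise across snails. Each line climbs, and lines differ in slope between snails.

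How even the response was across snails also differed between contigs. The range of d over the 11 snails, the largest minus the smallest, was between 1.14 and 6.13 with a median of 2.73. The lowest single d of a contig was between 0.003 and 1.62 with a median of 0.48. Contig 1905500 had the smallest range, with 2.79 to 5.45 CPM in the E1 controls and 7.11 to 11.2 in the activated libraries, and every d lay between 0.53 (snail 10) and 1.67 (snail 11). Contig 804182 had the next smallest range, with d between 0.52 (snail 2) and 1.81 (snail 1). Its E1 levels were 8.09 to 14.7 CPM in the controls and 18.5 to 29.6 in the activated libraries. Both were apart between the E1 groups and overlapped in E2 through the control library of snail 12.

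Contig 1048910 had the largest range. It had no count in the controls of snails 1 and 11, where d was 6.20 and 5.24, and 12.1 and 12.8 CPM on the control and activated sides of snail 10, where d was 0.07. Both of the largest values thus came from control libraries at 0, where d depends on the 0.5 CPM added. Contig 1998794 was next, with 0.541 and 0.695 CPM in snail 4 (d of 0.20) and 1.60 and 123 CPM in snail 1 (d of 5.88). Contigs 1998794 and 2029126 covaried (correlation 0.977). In E2 the paired libraries of contig 1998794 did not overlap, with controls between 4.74 and 35.2 CPM and activated libraries between 52.2 and 123.6.

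The spread between snails before and after activation was also compared. The SD of log2 CPM over snails had a median of 0.84 in the E1 controls and 0.74 in the E1 activated libraries, and of 0.91 and 0.64 in the paired E2 controls and activated libraries. It was larger in the controls for 109 contigs in E1 (58.0%), near the 57.2% of contigs at the same control level, and for 142 in E2 (75.5%), compared with 38.2%. The rule used these paired libraries, and the compared contigs were matched to the set by control level only. These shares are therefore a description. The contigs at the same control level had medians of 0.51 and 0.47 in E1 and of 0.55 and 0.71 in E2, where the activated library of snail 9 had the smallest total of all libraries, 926483 counts. The other totals ran up to 35225724.

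Beyond the rule, the same direction was not required of the libraries without a partner, those of snail 7 (activated) and snail 12 (control). Between them the log2 ratio had a median of 0.79 over the 188 contigs and was above 0 for 153 of them. It was at least 1 for 75 contigs (39.9%), compared with 17.9% of the contigs at the same control level and 8.78% of all expressed E2 contigs. At the same control level, the median ratio was 0.22 and 61.2% of contigs were above 0. Contig 891471 had the largest ratio, 5.00, with no count in snail 12 and 15.5 CPM in snail 7. Contig 1402800 had the smallest, -3.16, with 37.2 CPM in snail 12, against 0.749 to 5.96 CPM in the other E2 controls, and 3.71 CPM in snail 7. The libraries come from different snails and sides, there is 1 of each, and no test was made. With TMM scaling, the count at a ratio of at least 1 was 56 in place of 75. On that scale, no share at the same control level was determined.

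**Figure D5:**
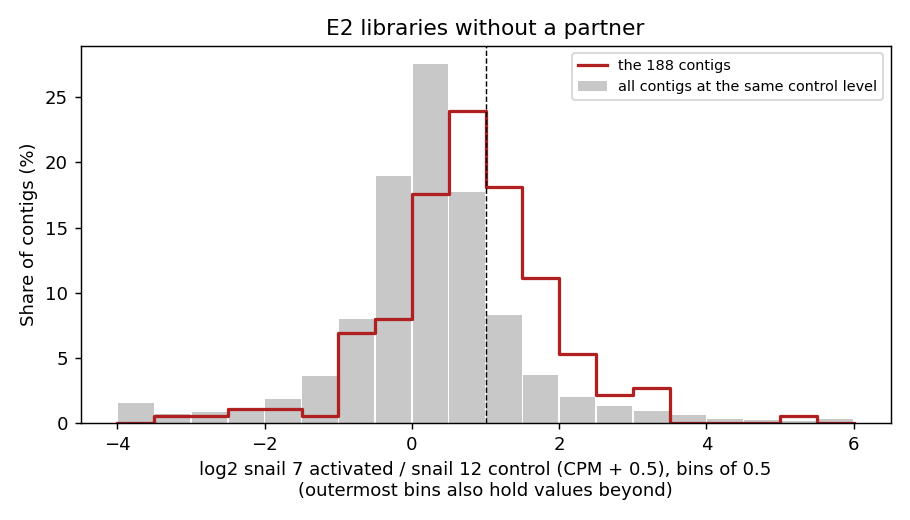
Share of contigs (percent, vertical axis) by the log2 ratio of the activated library of snail 7 to the control library of snail 12 (horizontal axis, bins of 0.5) for the 188 contigs (red line) and all contigs at the same control level (grey bars). The dashed line marks a 2-fold difference, and 39.9% of the 188 lie at or to the right of it, compared with 17.9% of the grey bars.

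The control library of snail 12 was then set against the paired E2 libraries. The rule used the paired controls, each of which had to lie below its activated partner, and did not use the library of snail 12, so the choice of contigs by itself favours a higher level in snail 12 and the background does not carry this. It was above all 5 paired E2 controls for 108 of the 188 contigs (57.4%), compared with 6.03% at the same control level. It was also above the lowest activated E2 library for 143 (76.1%), a share that was not determined at the same control level. Its log2 level exceeded the mean of the paired controls by a median of 1.05, while for the contigs at the same control level the median was -0.40, and it was 0.28 below the mean of the paired activated libraries (median -0.28). The c-fos/fosl2 contig was at 64.6 CPM in this library and at 7.82 to 56.4 in the other E2 controls. The activated library of snail 7 was above all 5 paired controls for 151 contigs (80.3%, with 11.2% of the contigs at the same control level). Set against the mean of the paired controls in place of snail 12, a comparison added after seeing the data, 152 contigs were at least 2-fold higher in snail 7, with 4.94% of the contigs at the same control level. Both counts for snail 7 also use the paired controls that the rule favours when low, and are descriptions.

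A second view used E1 to choose and E2 to look. The E1 conditions alone (6 of 6 d above 0, a mean d of at least 1 and at least 2 CPM in the E1 controls) were met by 439 contigs, 144 of which belong to the 188. Of the 439, 147 (33.5%) also had 5 of 5 d above 0 and a mean d of at least 1 in E2, compared with 0.532% of the 45643 contigs with that E1 control level and 0.212% of those that did not meet the E1 conditions. A d above 0 in 5 of 5 E2 snails was found for 257 (58.5%) of them, compared with 1.71%. Their median mean d in E2 was 0.89, compared with -0.17. Since the contigs are not independent of each other, these shares carry no test. The 144 members met the E2 conditions by the rule and are among the 147. The shares are therefore a description and no check apart from the rule.

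Fitted as groups across all expressed contigs, fewer of the 188 passed a test than the paired values show. In edgeR's exact test, at an adjusted p below 0.05 and more than 2-fold, 73 of the 188 were called higher after activation in E1 (0.0843% of all tested contigs) and 7 in E2 (0.0239%), and the 7 were called in both. None was called lower. The rule used this contrast, so the counts describe the contigs and are no evidence of their rise. Contig 668246 was 1 of the 7, with an adjusted p of 0.000456 in E1 and 0.025 in E2 in the exact test. Contig 350004 was called in E1 (adjusted p = 0.000106, exact test) and not in E2 (adjusted p = 0.595), and contig 230266 was called in neither (adjusted p = 0.649 and 1). The count in E1 fell to 44 without the control library of snail 1 and to 49 without that of snail 3. Over all contigs, calls higher after activation fell from 327 to 139 and 174 in these fits.

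With the snail as a block, the counts depended on how the fit was made. EdgeR's quasi-likelihood test with the block called 184 of the contigs in E1 (0.303% of all) and 94 in E2 (0.297%), 91 of them in both. With bias-adjusted deviances, added after seeing the data, it called 113 in E1 (0.115% of all) and 0 in E2 (0% of all). At an unadjusted p below 0.05 were 185 of the 188 in that E2 fit (13802 of 317414 contigs in all). With the block and at least 1 CPM in at least 6 libraries, the test called 0 in either experiment (0% of all). All 188 in E1 and 187 in E2 had an unadjusted p below 0.05 (3743 of 77722 and 2860 of 57529 contigs in all). Without the block the test called 0 in both. Then 177 and 98 of the 188 had an unadjusted p below 0.05 (10541 of 387774 and 12176 of 317414 in all). The rule chose the members by this contrast, so their low p-values are a description and no evidence of their rise.

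Before any stimulation, the 188 contigs were higher in the E2 than in the E1 controls. The choice of contigs was not independent of this difference, because the rule used the mean of all paired controls and a low control also raises d, and 44 contigs reached 2 CPM only through the E2 controls. The values are therefore a description. Fitted over the 12 control libraries with edgeR's quasi-likelihood test, 46 were called higher in E2 and 0 lower, whereas of all contigs 0.291% were called higher and 0.739% lower. The log2 difference was positive for all 188, between 0.12 and 4.02 with a median of 2.19, against a median of 0.02 over all contigs tested. Among the 144 contigs with at least 2 CPM in the E1 controls, a count added after seeing the data, 29 were called and the median was 2.01, and among the other 44 these were 17 and 2.70. By plain CPM, the mean was higher in the E2 controls for 185 contigs and higher in the E2 activated libraries for 175. For 44 contigs the mean of the E2 controls was above that of the activated E1 libraries. The median log2 difference of the group means was 1.42 in the controls, where contigs at the same control level had -0.41, and 0.68 in the activated libraries. For the counts by plain CPM and the median of 0.68, the values of contigs at the same control level were not determined.

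Contigs 1487905 and 1312734 had the smallest p of this comparison, and both are members only through the E2 controls, with a mean of 0.914 and 1.63 CPM in the E1 controls. Contig 1487905 had 0.399 to 1.42 CPM in the E1 controls (median 0.910) and 2.10 to 9.43 in the E2 controls (median 5.48), with no overlap. Its fitted log2 difference was 3.27 ± 0.483 (SE). Contig 1312734 had 0.571 to 4.08 CPM in the E1 controls (median 1.21) and 6.51 to 27.5 in the E2 controls (median 12.6), again without overlap. Its fitted log2 difference was 3.70 ± 0.556 (SE).

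The number of calls between the controls depended on single libraries, in the set and over all contigs. In the set it fell to 12 without the E1 control of snail 1 or of snail 3, to 14 without the E2 control of snail 10, to 16 without the E2 control of snail 12 or the E1 control of snail 6, to 20 without the E1 control of snail 4 and to 23 without that of snail 5. Over all contigs, calls higher in E2 fell from 1046 to between 566 and 755 in these fits. At an unadjusted p below 0.05, 169 of the 188 became 153 to 166. In all, 40388 of 359416 contigs became 33069 to 39018. The median log2 difference of the 188 was 1.69 without snail 12. The E2 controls were a small piece of the ganglion and came from other snails and other libraries, and these cannot be told apart.

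Side was crossed with activation in E1, so left and right could be compared apart from the mean d of the rule. With 1 library per side and snail, a difference in level between the sides and a difference in the rise by activated side are the same contrast and cannot be told apart. In edgeR's quasi-likelihood test with snail, activation and side, 10 of the 188 contigs were called, all of them with a fitted level lower on the right than on the left (0.644% of all contigs were called in either direction). At an unadjusted p below 0.05 there were 54 of the 188, compared with 3.94% of all contigs. Without snail 1 there were 13 (14344 of 343827 contigs in all) and without snail 4 there were 20 (14908 of 343208). Bias-adjusted deviances gave 13 (14409 of 387774) and the filter of at least 1 CPM in at least 6 libraries 8 (5047 of 77722). DESeq2 gave 7 (5754 of 387774) and the fit without the block 0 (8473 of 387774). The log2 difference of right minus left was between -1.33 and 0.37 with a median of -0.25, and was above 0 for 20 contigs. Without snail 4 the median was 0.02 and 99 contigs were above 0, and without snail 1 these were -0.05 and 80. The mean d was larger in the snails activated on the left for 162 contigs (86.2%, with 48.8% of the contigs at the same control level), but for 85 without snail 1, for 101 without snail 4 and for 33 without both, counts added after seeing the data. The lean of the set to the left thus rested on the snails with the largest and the smallest median d.

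Contig 747478 was 1 of the 10, with activated levels of 261.8, 263 and 140.6 CPM in the left libraries of snails 1 to 3 and of 41.7, 158.6 and 125 CPM in the right libraries of snails 4 to 6. Its controls were 12.0, 41.0 and 18.4 CPM on the right and 25.4, 37.9 and 26.4 on the left. The mean d was 3.32 in left-activated and 1.66 in right-activated snails (edgeR, log2 difference of right minus left -0.79 ± 0.151 (SE), adjusted p = 7.52e-05). Contig 575907 had the smallest p (-1.33 ± 0.248, edgeR, adjusted p = 3.62e-05), but it had no count in the controls of snails 2, 3 and 6. Its mean d was 4.56 in left-activated and 3.27 in right-activated snails. By plain CPM its mean was not lower on the right, at 11.5 in the left and 14.0 in the right libraries.

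None of the 10 calls remained under bias-adjusted deviances, DESeq2, a filter of at least 1 CPM in at least 6 libraries or a fit without the block, and 1 call was left without snail 4, 3 without snail 1 and 4 without snail 6. Without snail 2 there were 34. Over all contigs, 2498 were called in either direction. That was 2434 without snail 4, 2722 without snail 1, 2155 without snail 6 and 2142 without snail 2. The log2 difference of contig 575907 was -3.71 without snail 1 and, without snail 4, -0.88 (adjusted p = 0.203 in edgeR's test). That of contig 747478 was -0.52 without snail 4 (adjusted p = 0.179 in edgeR's test). The left parts also carried the visceral ganglion by the methods, and its part in the difference was not tested.

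Most of the 188 contigs shared at least some reads with other contigs, and how large a part of their counts was shared was not measured. RSEM divides a read that maps to several contigs among them, which leaves expected counts that are not whole. A contig of the set had a count that was not whole (by more than 0.005) in a median of 22 of the 24 libraries, and contigs at the same control level in a median of 21. In 157 contigs (83.5%) this was so in 12 or more libraries, close to the 83.0% at the same control level, and in 54 it was so in all 24. Only 1 contig had whole counts in all libraries (0.725% at the same control level). The level of a single contig is therefore uncertain where it shares sequence with another.

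Some of the contigs moved together beyond the groups. With the group means removed, the log2 levels of the 17578 pairs of contigs had a median correlation of 0.47 over the 24 libraries, and 92.7% of pairs were above 0. A correlation of at least 0.95 was found for 24 pairs, which join 34 of the contigs into 13 groups. The pairs share libraries, snails and depth, so these are descriptions. No such values were determined for other contigs at the same control level, so they do not show a trait particular to the 188. The largest group held 7 contigs (382141, 775962, 1174441, 1420208, 1714150, 1879531 and 2029594), and the next held 4 (742352, 1596259, 1727515 and 1864999). Contigs 742352 and 1727515 had the highest correlation, 0.986, and a median count ratio of 0.804 with an SD of 0.20 on the log2 scale. Contigs 1168860 and 1527191 kept a ratio of 1.86 with an SD of 0.15. The number of genes behind the 188 contigs was not determined.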

How the data were processed

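RNA-Seq libraries of 12 control and 12 activated parts of the PaG were analysed. Another 11 samples, used by the authors only for the assembly, were not analysed here. Per the methods, the authors trimmed adapters (cutadapt 1.11 in the submitters' processing notes), assembled contigs without a genome, mapped reads with Bowtie 1.0.0 and estimated expected counts per contig with RSEM 1.2.18. The deposited expected counts are neither normalized nor filtered. On the RNA the sources differ, since the labels name poly A+ RNA and the methods an rRNA-depleted, stranded preparation. Each of the 24 count columns carries the name of 1 sample (0 had none).

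The members of the set, the lists and the alternatives were chosen with earlier results of these data known. Counts were left as deposited for CPM and rounded to whole numbers for tests. Contigs with a total above 10 over the 12 libraries of a comparison were tested, which kept all 188, and libraries were scaled with TMM. Activated and control libraries were compared with edgeR's exact test, the test of the study, and control libraries of E2 with E1 and right with left in E1 with edgeR's quasi-likelihood test (glmQLFit and glmQLFTest). P-values were adjusted by the Benjamini-Hochberg method over all contigs tested, at 0.05, and for all but side a fold above 2 was asked. Versions were Python 3.11.15, R 4.3.3, edgeR 4.0.16, limma 3.58.1 and DESeq2 1.42.0. The fits were tested on simulated counts with a common dispersion, no difference between snails and larger changes than most seen here. That test does not show how reliable the calls are in these data. Alternatives covered the test, the block, the normalization, filters, the pseudocount of 0.5 CPM, the thresholds of the rule and leaving out each library.

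Named are the 5 contigs with the highest control level, the 5 with the largest mean d, the 2 with the smallest and the 2 with the largest range of d, the 2 with the smallest p between controls in each direction and by side, those at the thresholds and the extremes between snails 7 and 12. Other contigs are named as groups of covarying contigs or as called by side.

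The snail number pairs libraries of the same animal. Among contigs averaging 50 or more counts, deviations from the group means correlated at 0.698 to 0.793 within snails and at -0.260 to -0.0729 between snails in E1 (30204 contigs), and at 0.375 to 0.744 and -0.267 to 0.0190 in E2 (20450 contigs). The total count per library was between 926483 and 35225724. Snails are separate animals, so the spread between libraries is biological and technical.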

Additional observations from a re-analysis of the deposited data

Results flagged for a closer look

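Of 92 groups of 4 to 10 values (summed levels, library totals, and levels and d of the contigs named for level, size or evenness), 12 had a highest value that lay apart from the rest, by a gap too large a part of the range for Dixon's 95% limit. Chance gives about 1 in 20, or 4.6. The values of a contig share libraries, and these contigs were chosen by d and level and named for their extremes, so the chance figure does not hold for them and is given for scale. In the E1 controls, snail 2 was high for contig 1847519 (398 CPM) and contig 668246 (10.3 CPM). In the E1 activated libraries, snail 5 was high for contig 1915914 (265 CPM) and snail 1 for contig 399398 (91.1 CPM). Snail 1 had the largest d in E1 for contig 1915914 (2.95) and contig 1048910 (6.20), which was named for its large range and whose control in snail 1 was at 0, where d depends on the 0.5 CPM added. In the E2 controls, snail 12 was high for contig 1596259 (35.2 CPM) and contig 804182 (44.0 CPM), and snail 10 for contig 1915914 (271 CPM). In the E2 activated libraries, snail 10 was high for contig 1164924 (968 CPM), and snail 9, with the smallest total count, for contig 1905500 (29.3 CPM) and contig 804182 (65.6 CPM).

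For 10 contigs, edgeR's quasi-likelihood test of side in E1 passed (adjusted p between 3.62e-05 and 0.0364), whereas bias-adjusted deviances, DESeq2, the CPM filter and the fit without the block called 0. A difference in level between sides and one in the rise cannot be told apart here. The mean d of the left-activated snails exceeded that of the right-activated ones by 1.65 for contig 399398, 1.68 for contig 408382, 1.29 for contig 575907, 1.34 for contig 742352, 1.66 for contig 747478, 1.62 for contig 1048910, 1.36 for contig 1168860, 1.33 for contig 1527191, 1.32 for contig 1727515 and 1.92 for contig 1998794. Contigs 742352 and 1727515, and contigs 1168860 and 1527191, are covarying pairs.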

How the results depend on the processing

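The number of contigs that met the rule was 104 with at least 5 CPM in the controls, 424 with a mean d of at least 0.5 and 66 with a mean d of at least 1.5, and leaving out 1 snail gave 158 (without snail 11) to 226 (without snail 13). With TMM scaling it was 184, of which 161 were shared. The share of contigs chosen in E1 that also met the E2 conditions was 26.7% without snail 11 and 41.7% without snail 10 at the extremes. Between snails 7 and 12, 56 contigs in place of 75 were at least 2-fold higher with TMM scaling. No share at the same control level was determined for that scale. By plain CPM, 153 were higher at all. With the mean of the paired controls as reference, which the rule favours when low, 152 were 2-fold higher (4.94% of contigs at the same control level). Of the 188, the exact test called 73 and 7 higher in E1 and E2 (327 of 387774 and 76 of 317414 contigs in all). DESeq2 called 110 and 19 (526 of 387774 and 173 of 317414 in all). The filter of at least 1 CPM in at least 6 libraries gave 107 and 17 (350 of 77722 and 116 of 57529 in all). No filter gave 70 and 3 (288 of 631225 and 40 of 595006 in all). The quasi-likelihood test called 184 and 94 with the replicate block and 0 and 0 without it (10541 and 12176 contigs of the whole tables had an unadjusted p below 0.05). Chosen after seeing the data, bias-adjusted deviances with the replicate block called 113 and 0, and the CPM filter with the replicate block 0 and 0. Leaving out 1 library gave 44 to 105 in E1 and 3 to 10 in E2, where 3 were called without the activated library of snail 7 or the control of snail 8, 9 or 11. Over all contigs, the E1 fits with 44 and 105 called 139 and 506 higher. The E2 fits with 3 called 28 to 66 higher, and that with 10 called 144. Between the controls of E2 and E1, DESeq2 called 107, the exact test 97 and bias-adjusted deviances 65 in place of 46. Over all contigs these settings called 3053, 2908 and 1665 higher in E2, in place of 1046. Leaving out 1 library gave 12 to 61 of the 188, and 29 of the 46 calls were contigs with at least 2 CPM in the E1 controls. By side, RLE size factors called 23 in place of 10, the CPM filter, DESeq2, bias-adjusted deviances and the fit with no replicate block called 0, and leaving out 1 snail gave 1 to 34. Over all contigs, RLE size factors called 3093 in place of 2498, and the CPM filter 495. DESeq2 called 895 of all contigs, bias-adjusted deviances 642 and the fit with no replicate block 308. The mean d was larger in left-activated snails for 162 contigs, for 85 (without snail 1) to 177 (without snail 2) with 1 snail left out, and for 33 without snails 1 and 4. The causes of these differences were not tested. Depth limits the low contigs, since up to 28 of the 188 had at most 3 counts in a control library (snail 6) and the activated library of snail 9 had a median of 25 counts.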
